A study of Mus musculus with 6 samples.

Results

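The 10 genes described here are listed markers of microglia, the resident macrophages of the brain: Cx3cr1, Csf1r, Trem2, Tyrobp, C1qa, C1qb, C1qc, Lyz2, Ctss and Laptm5. They were chosen by name, with earlier results of these data known, and all 10 were found among the 25814 genes of the deposited table. Messenger RNA came from 6 libraries of cortical and hippocampal primary neurons grown together, 3 from Tlr7-/- and 3 from wild-type (WT) mice of C57BL/6 background, all collected on day 18 in vitro. The medium was Neurobasal/DMEM with B27 for every library, and the labels give neither the Tlr7 allele's construction nor any selection for or against glia. The labels do not say whether the 3 libraries of a genotype were separate cultures or animals. The p-values below therefore speak only to the spread among these libraries, which may be technical.

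Microglia arise from yolk sac progenitors, unlike neurons, astrocytes and oligodendrocytes, and in a neuron culture they are present only as carried-over cells. They live on signals through the receptor Csf1r, meet the neuronal chemokine Cx3cl1 through Cx3cr1, sense lipids and debris through Trem2 with its signalling adaptor Tyrobp, and secrete C1q, the first component of complement, which marks synapses for removal. Most of these genes are also active in other macrophages.

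Totals were 23272450 to 25696625 counts per library. Tlr7 had 3, 5 and 5 counts in Tlr7-/- replicates 1 to 3, against 4, 8 and 4 counts in WT replicates 1 to 3, too few to check the genotype labels (exact permutation test, two-sided, p = 0.8; 3 against 3 cannot go below 0.1). On the first principal component of all tested genes Tlr7-/- replicates 2 and 3 lay at 46.3 and 44.6, and the remaining 4 libraries at -29 to -15.6. That pair also carries another style of library name in the labels and had more mitochondrial counts, 4.4% and 4.19%, against 2.98% in Tlr7-/- replicate 1 and 2.6% to 3.14% in WT libraries. The part of these differences in the results was not tested. Tlr7-/- replicate 1 is named like the WT libraries, so values are given for the whole Tlr7-/- group and for its 2 parts. WT replicate 3 also stood apart from the other WT libraries in the genes described here, and the effect of leaving it out is given beside the fitted comparisons.

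The level of these 10 genes was low and varied more within each genotype than between the genotypes. Summed over the 10 genes, the libraries held 190, 1042 and 773 counts in Tlr7-/- replicates 1 to 3, against 158, 83 and 1576 counts in WT replicates 1 to 3. Scaled to library size these sums were 7.43, 44.8 and 31.7 CPM (counts scaled to a common library total) in Tlr7-/- cultures, against 6.15, 3.55 and 64 CPM in WT cultures. The highest library, WT replicate 3, and the lowest, WT replicate 2, belonged to the same genotype and differed by 18.0-fold (95% interval 14.4 to 22.7, which, like all intervals here, covers counting error only). Within Tlr7-/- cultures the highest sum was 6.02 times the lowest. The means were 28 ± 18.9 CPM in Tlr7-/- and 24.6 ± 34.2 CPM in WT cultures (SD, n = 3 each), and the groups overlapped. In bulk RNA, fewer cells of a type and less RNA per cell cannot be told apart.

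**Figure D1:**
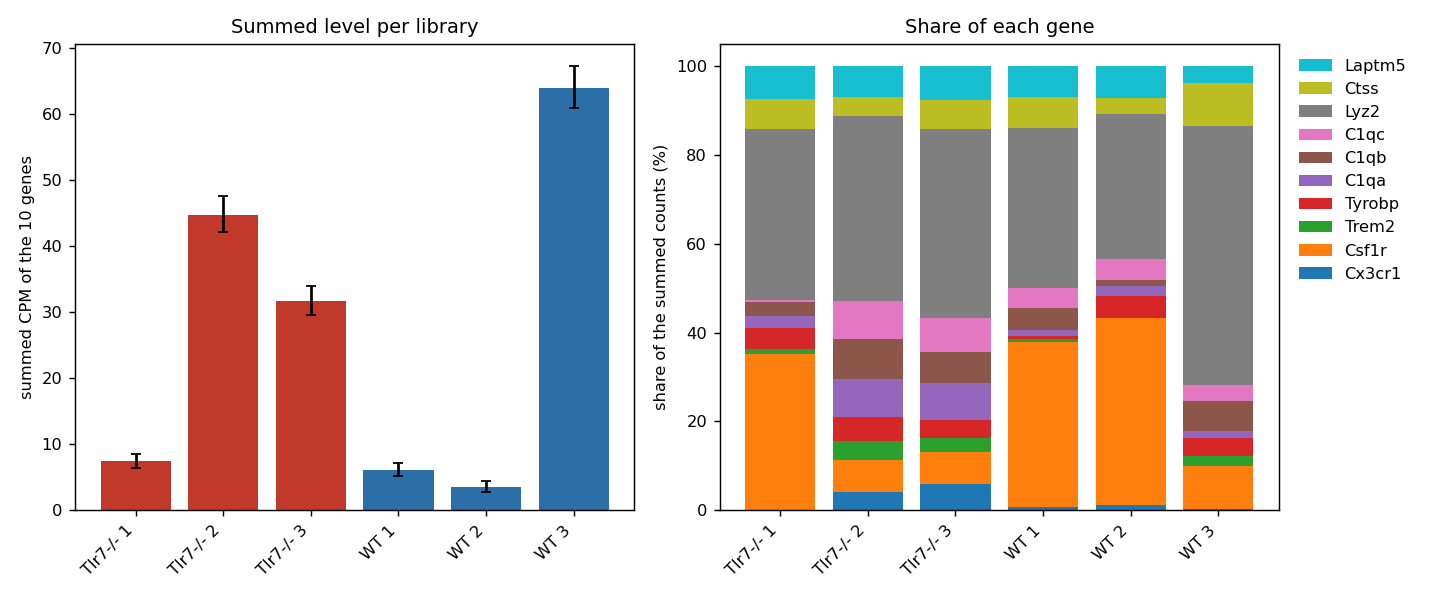
Left, the summed CPM of the 10 genes in each library, with exact 95% Poisson intervals. Right, the share of each gene in the summed counts of that library, in percent. Sums run from 3.55 CPM in WT replicate 2 to 64 CPM in WT replicate 3, and Csf1r takes the largest or next largest share in the 3 libraries with the lowest sums.

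The label was checked against further microglial genes. Of 12 genes known from resting microglia, Siglech and P2ry13 had no count in any library, which allows up to 0.117 to 0.129 CPM per library. Tmem119, a surface protein used to tell microglia from other macrophages, had 1 count in all, in WT replicate 1. P2ry12, the purine receptor of resting microglia, had 5, 13 and 11 counts in Tlr7-/- cultures, against 4, 5 and 4 in WT cultures. Sall1, a transcription factor of microglia that neural cells also make, had 311 to 512 counts in Tlr7-/- cultures, against 268 to 384 in WT cultures. The pan-macrophage integrin Itgam, listed here as Itgam_1 beside an overlapping second entry, had 3, 29 and 28 counts in Tlr7-/- cultures, against 5, 1 and 45 in WT cultures. The markers that set microglia apart from other macrophages were thus at or near 0, so the counts of the 10 genes do not tell microglia from other macrophages.

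Among 10 markers of macrophages at the borders of the brain, the scavenger receptor Stab1 had 9, 219 and 128 counts in Tlr7-/- cultures, against 6, 2 and 47 in WT cultures. The mannose receptor Mrc1 had 0, 41 and 18 counts in Tlr7-/- cultures, against 1, 0 and 7 in WT cultures. Ms4a7 had 1, 10 and 7 counts in Tlr7-/- cultures, against 4, 2 and 25 in WT cultures. Lyve1 did not share this pattern, with 25, 43 and 33 counts in Tlr7-/- and 66, 51 and 38 in WT cultures, and F13a1 and Cd163 had at most 3 counts per library. The summed level of this list was 1.6 to 14.7 CPM in Tlr7-/- and 2.61 to 6.17 CPM in WT cultures. Its part in the levels of the 10 genes was not tested. Blood leukocyte markers came to 3 or 4 counts per library over 14 genes, with 5 of them at 0 throughout.

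Promoter windows are shown for 4 members: C1qb and C1qc, neighbouring genes whose products join in 1 protein, and Lyz2 and Cx3cr1, whose shares differed between the libraries with high sums. The RefSeq table (GRCm38.p6), which runs from 250 bases before to 50 after each start site, held windows for 7 of the 10 members. Capitals mark GAGGAA or its reverse complement TTCCTC, the core bound by PU.1, the ETS factor that specifies macrophages.
C1qb (chr4:136886151-136886450, minus strand): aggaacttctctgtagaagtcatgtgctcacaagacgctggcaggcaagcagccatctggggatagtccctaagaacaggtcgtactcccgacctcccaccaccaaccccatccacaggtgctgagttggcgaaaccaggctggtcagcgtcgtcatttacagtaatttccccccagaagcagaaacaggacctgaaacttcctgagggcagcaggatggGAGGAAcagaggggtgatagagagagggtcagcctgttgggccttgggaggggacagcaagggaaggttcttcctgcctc
C1qc (chr4:136892865-136893164, minus strand): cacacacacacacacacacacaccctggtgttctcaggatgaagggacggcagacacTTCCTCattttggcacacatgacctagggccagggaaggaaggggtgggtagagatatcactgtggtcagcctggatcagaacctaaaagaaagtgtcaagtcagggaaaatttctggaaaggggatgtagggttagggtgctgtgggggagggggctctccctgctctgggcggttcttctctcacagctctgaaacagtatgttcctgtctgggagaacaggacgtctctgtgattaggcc
Lyz2 (chr10:117282223-117282522, minus strand): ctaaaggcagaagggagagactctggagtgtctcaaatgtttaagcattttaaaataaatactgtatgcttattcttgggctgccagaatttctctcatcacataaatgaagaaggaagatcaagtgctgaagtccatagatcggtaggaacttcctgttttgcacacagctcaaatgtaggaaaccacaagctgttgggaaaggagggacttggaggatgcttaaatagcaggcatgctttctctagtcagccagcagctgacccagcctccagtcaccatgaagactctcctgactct
Cx3cr1 (chr9:120068247-120068546, minus strand): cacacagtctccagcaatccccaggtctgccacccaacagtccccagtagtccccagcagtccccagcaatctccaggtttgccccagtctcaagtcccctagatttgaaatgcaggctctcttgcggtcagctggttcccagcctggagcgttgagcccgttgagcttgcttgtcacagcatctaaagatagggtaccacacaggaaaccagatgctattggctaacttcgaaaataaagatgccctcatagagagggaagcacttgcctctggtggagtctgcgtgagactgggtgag

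The match in C1qb lay at -30 to -25 from the start site, and that in C1qc at -193 to -188 on the opposite strand. Searched on both strands, GAGGAA was in 5 of the 7 windows, in Ctss, Laptm5 and Trem2 besides these, and in 28.3% of all 32851 windows of the table. The longer GAGGAAGT, which contains it, was in C1qc and Ctss and in 3.2% of all windows. The C/EBP motif TTNNGCAA was in 1 of the 7 (Trem2; 10.8% of all windows), the AP-1 motif TGANTCA also in Trem2 (7.81%), and the PU.1-IRF composite motif in 0 of the 7 (2.72%). A match is a description of these letters, not of binding.

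**Figure D2:**
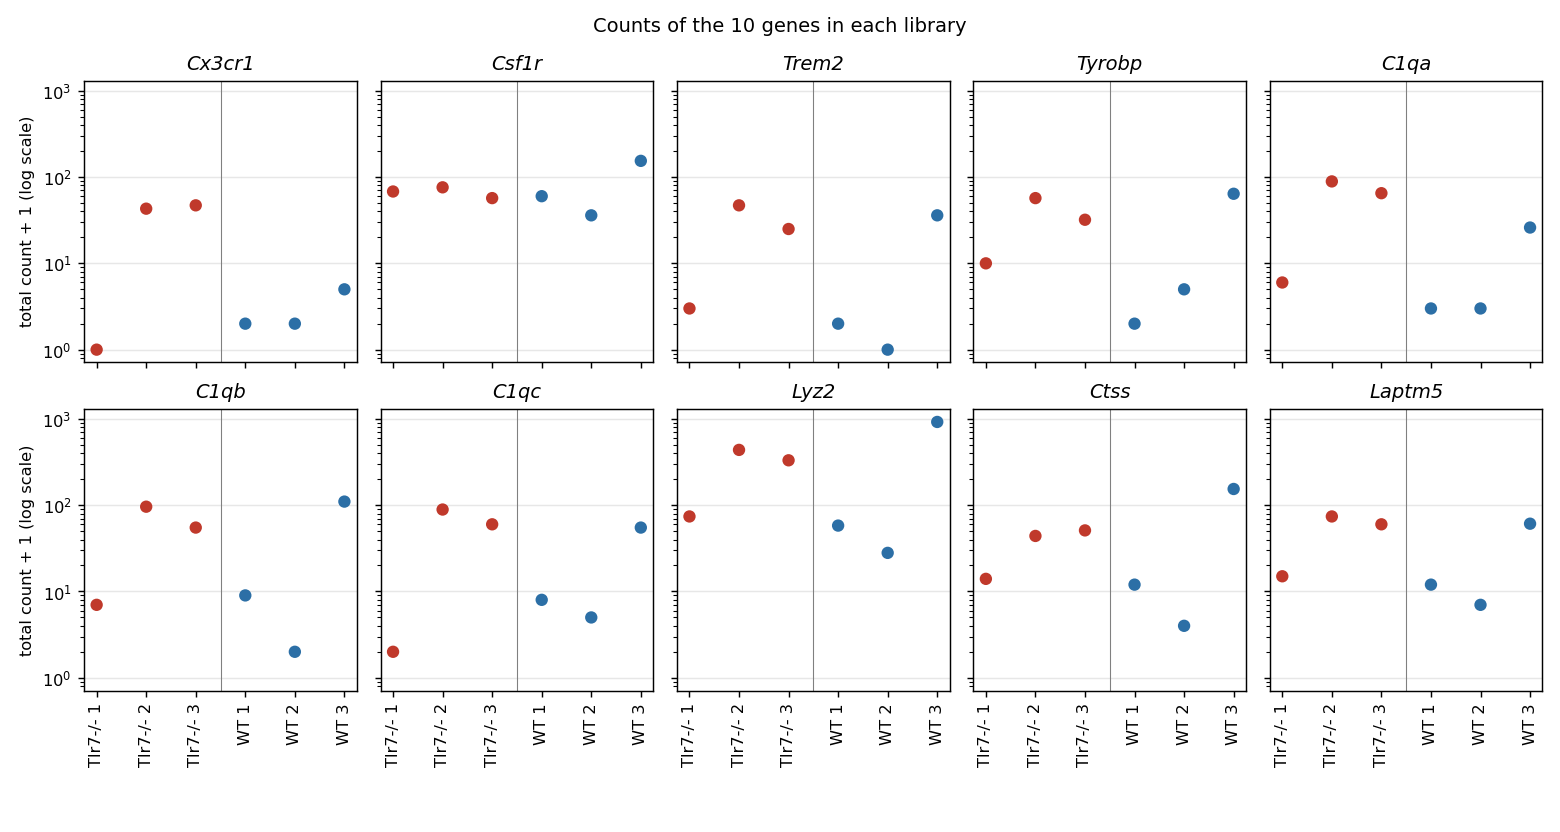
Total count plus 1 of each gene on a log scale, with the 3 Tlr7-/- libraries left of the 3 WT libraries in each panel. For 9 of the 10 genes Tlr7-/- replicate 1 is the lowest Tlr7-/- library by CPM, and for all 10 WT replicate 3 is the highest WT library, while Csf1r spans 35 to 153 counts.

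Of the receptors that microglia live on and sense with, Cx3cr1, the fractalkine receptor (ENSMUSG00000052336, GRCm38 chromosome 9, 119901616 to 120069879, minus strand), was counted mainly in 2 libraries. It had 0, 42 and 46 counts in Tlr7-/- replicates 1 to 3, against 1, 1 and 4 counts in WT replicates 1 to 3. Tlr7-/- replicates 2 and 3 were each above every WT library. Replicate 1 had no count, which allows 3 counts, so it cannot be ranked against the WT libraries. Relative to WT replicate 3, the WT library richest in the other members, Tlr7-/- replicates 2 and 3 held 11.1 times (95% interval 4.03 to 42.7) and 11.6 times (4.24 to 44.4) as much Cx3cr1. Pooled counts were 88 in Tlr7-/- and 6 in WT libraries, a ratio of 14.8 (6.52 to 41.3), but across libraries the difference did not pass (exact permutation test, two-sided, p = 0.4). Cx3cr1 fell below the filter on low counts of the fit across all genes. With no filter its log2 fold change was 3.81 ± 1.34 (SE; edgeR adjusted p = 0.164). The authors' deposited table gives Cx3cr1 a log2 fold change of 3.74 with a false discovery rate of 0.0358. The gene region spans 5 other listed genes, 2 of them on the opposite strand (Ttc21a and Wdr48), and whether counting used strand is not given in the sources used here.

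Csf1r, the receptor for the survival factors Csf1 and Il34 (ENSMUSG00000024621, chromosome 18, 61105572 to 61132149, plus strand), varied least. Its counts were 67, 75 and 56 in Tlr7-/- and 59, 35 and 153 in WT libraries, so that only WT replicate 3 stood out, at 2.71 times WT replicate 1 (1.99 to 3.72) and 4.14 times WT replicate 2 (2.86 to 6.17). Within the Tlr7-/- group it did not follow the other members: the ratio of replicate 2 to replicate 1 was 1.23 (0.872 to 1.74), and that of replicate 3 to replicate 1 was 0.876 (0.603 to 1.27). Its 3′ end overlaps Hmgxb3 on the opposite strand, which had 1320 to 1790 counts in Tlr7-/- and 1549 to 1646 in WT libraries. The part of Hmgxb3 reads in the Csf1r counts was not tested.

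Trem2, the lipid-sensing receptor (ENSMUSG00000023992, chromosome 17, 48346401 to 48354147, plus strand), had 2, 46 and 24 counts in Tlr7-/- and 1, 0 and 35 in WT libraries. Tyrobp, the adaptor DAP12 through which Trem2 signals (ENSMUSG00000030579, chromosome 7, 30413760 to 30417585, plus strand), had 9, 56 and 31 counts in Tlr7-/- and 1, 4 and 63 in WT libraries. For both genes WT replicate 3 reached the range of Tlr7-/- replicates 2 and 3, and the remaining 3 libraries had at most 9 counts. Relative to WT replicate 3, Tlr7-/- replicate 2 had a Trem2 ratio of 1.39 (0.877 to 2.22) and a Tyrobp ratio of 0.941 (0.644 to 1.37). Further receptors of the Trem family and other partners in adaptor signalling, the adaptor Hcst among them, came to 6 to 14 counts in Tlr7-/- and 8 to 13 counts in WT libraries over 9 genes, of which Trem3 was the most abundant.

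The genes C1qa, C1qb and C1qc encode the chains of C1q and lie side by side on the minus strand of chromosome 4. C1qa (ENSMUSG00000036887, 136895917 to 136898803) had 5, 88 and 64 counts in Tlr7-/- and 2, 2 and 25 in WT libraries. C1qb (ENSMUSG00000036905, 136880129 to 136886187) had 6, 95 and 54 counts in Tlr7-/- and 8, 1 and 109 in WT libraries. C1qc (ENSMUSG00000036896, 136889804 to 136893065) had 1, 88 and 59 counts in Tlr7-/- and 7, 4 and 54 in WT libraries. The 3 genes did not keep 1 ratio. Tlr7-/- replicate 2 had 3.72 times as much C1qa as WT replicate 3 (2.37 to 6.06) and 1.72 times as much C1qc (1.22 to 2.47), but a ratio of 0.922 for C1qb (0.693 to 1.23). In Tlr7-/- replicate 3 the same ratios were 2.58 (1.6 to 4.28), 1.1 (0.75 to 1.63) and 0.5 (0.354 to 0.699).

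Lyz2, the lysozyme of macrophages (ENSMUSG00000069516, chromosome 10, 117277331 to 117282321, minus strand), was the most abundant member. It had 73, 436 and 330 counts in Tlr7-/- and 57, 27 and 920 in WT libraries. WT replicate 3 held 16.8 times the Lyz2 of WT replicate 1 (12.9 to 22.4) and 32.3 times that of WT replicate 2 (22.1 to 49.3). Its close paralog Lyz1, with which it could share reads, had 0 or 1 count in each library. Ctss, the lysosomal protease cathepsin S (ENSMUSG00000038642, chromosome 3, 95526786 to 95556403, plus strand), had 13, 43 and 50 counts in Tlr7-/- and 11, 3 and 153 in WT libraries, and was highest in WT replicate 3. Laptm5, a lysosomal membrane protein of blood-derived cells (ENSMUSG00000028581, chromosome 4, 130913125 to 130936141, plus strand), had 14, 73 and 59 counts in Tlr7-/- and 11, 6 and 60 in WT libraries, with WT replicate 3 near Tlr7-/- replicates 2 and 3.

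Levels can be compared between genes only per length, for which the authors' TPM (a transcript level scaled by length and library) were used. Lyz2 was first, at 27.4 ± 19.2 TPM in Tlr7-/- and 29.5 ± 44.8 TPM in WT libraries (SD, n = 3 each). C1qb (6.17 ± 5.48 TPM in Tlr7-/-, 4.19 ± 6.47 TPM in WT), Tyrobp (6.2 ± 4.8 TPM in Tlr7-/-, 3.96 ± 6.09 TPM in WT), Ctss (3.33 ± 1.94 TPM in Tlr7-/-, 4.76 ± 7.23 TPM in WT), C1qa (6.53 ± 5.45 TPM in Tlr7-/-, 1.08 ± 1.48 TPM in WT) and C1qc (5.34 ± 4.87 TPM in Tlr7-/-, 2.09 ± 2.71 TPM in WT) followed, by mean over all 6 libraries. Then came Trem2 (2.74 ± 2.57 TPM in Tlr7-/-, 1.22 ± 2.03 TPM in WT), Csf1r (1.69 ± 0.307 TPM in Tlr7-/-, 1.95 ± 1.48 TPM in WT), Laptm5 (2.27 ± 1.51 TPM in Tlr7-/-, 1.08 ± 1.26 TPM in WT) and last Cx3cr1 (0.844 ± 0.732 TPM in Tlr7-/-, 0.0517 ± 0.0447 TPM in WT). Neighbours in this order differed by less than the larger of their SDs in both genotypes, except Lyz2 and C1qb in Tlr7-/- libraries. These SDs are between libraries, which the genes share, so they do not settle the order of genes within a library. Lyz2 was above C1qb, and Laptm5 above Cx3cr1, in every library, while the other neighbours changed order between libraries.

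The make-up of the sum differed between libraries as well as its size. Csf1r made up 35.3% of the summed counts in the first Tlr7-/- library and 7.2% and 7.24% in the others, against 37.3%, 42.2% and 9.71% in WT replicates 1 to 3. The exact (Clopper-Pearson) 95% intervals of the 3 high shares, 28.5% to 42.5%, 29.8% to 45.4% and 31.4% to 53.5%, did not reach those of the 3 low shares, of which the highest bound was 11.3%. Lyz2 made up 38.4%, 41.8% and 42.7% in Tlr7-/- libraries, against 36.1%, 32.5% and 58.4% in WT libraries. Its share in WT replicate 3 (55.9% to 60.8%) lay above the intervals of the other 5 libraries. Cx3cr1 made up 4.03% (2.92% to 5.41%) and 5.95% (4.39% to 7.86%) in Tlr7-/- replicates 2 and 3, against 0.254% (0.0692% to 0.649%) in WT replicate 3. C1qa made up 8.45% and 8.28% in Tlr7-/- replicates 2 and 3, against 1.59% (1.03% to 2.33%) in WT replicate 3. C1qc made up 8.45% (6.83% to 10.3%) and 7.63% (5.86% to 9.74%) in Tlr7-/- replicates 2 and 3, against 3.43% (2.58% to 4.45%) in WT replicate 3. Laptm5 made up 7.01% (5.53% to 8.73%) and 7.63% (5.86% to 9.74%) in Tlr7-/- replicates 2 and 3, against 3.81% (2.92% to 4.87%) in WT replicate 3. Lyz2 thus had a higher share in WT replicate 3 than in both Tlr7-/- libraries. Cx3cr1, C1qa, C1qc and Laptm5 had lower shares there, each of the genes with intervals apart. Shares of a sum depend on each other, so the high Lyz2 share lowers the others. By CPM relative to WT replicate 3, Laptm5 had ratios of 1.29 (0.902 to 1.84) and 0.993 (0.681 to 1.45) in Tlr7-/- replicates 2 and 3. C1qc had 1.72 (1.22 to 2.47) and 1.1 (0.75 to 1.63), and the intervals of Cx3cr1 and C1qa lay wholly above 1. WT replicate 3 is a single library, so these differences have no replicate check.

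Set beside all genes, a spread of this size between replicates was rare. WT replicate 3 was at least 4-fold above both other WT libraries for 8 of the 10 members (every one but Cx3cr1 and Csf1r), with counts under 3 raised to 3. Of the 13947 genes tested, 0.165% met this rule. Tlr7-/- replicates 2 and 3 were each at least 4-fold above replicate 1 for 7 members (every one but Csf1r, Ctss and Tyrobp), against 0.473% of genes tested. Both rules were met by 16 genes tested, or 0.115%, of which 6 were members and 10 were not. The 10 others, named after their values were seen, were C3ar1, Cd84, Fcer1g, Fcrls, Hk3, Itgam_1, Mpeg1, Myo1f, Slc15a3 and Stab1, all known from macrophages or other myeloid cells. These shares are over genes that passed the filter on low counts, which 9 members did. The members were chosen with earlier results of these data known, so the contrast with all genes is a description and no test.

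The genes with the nearest profile were found by the root mean square difference between centred log2 CPM over the 6 libraries and the median of the 9 tested members. The nearest was Itgam_1 (0.266), followed by Myo1f, a myosin of leukocytes (0.268), and Hk3, a hexokinase of myeloid cells (0.3). Mpeg1, a pore-forming protein of macrophages, was at 0.437, with 9, 151 and 129 counts in Tlr7-/- and 12, 7 and 107 in WT libraries. Gpnmb, a lysosomal glycoprotein, was at 0.456, with 42, 433 and 389 counts in Tlr7-/- and 72, 33 and 269 in WT libraries. Next were Adgre1, Fcer1g, Cd84, C3ar1 and Slc15a3, at 0.465 to 0.576, against a median of 1.58 over all genes tested. Among the members themselves Trem2 (0.354), Laptm5 (0.359) and Lyz2 (0.361) were nearest to the median profile and Csf1r (1.19) was farthest. The members make up that median, so their distances cannot be compared with those of the other genes.

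The comparison the design names is that of the genotypes. With all 6 libraries 0 of the 9 tested members passed edgeR's quasi-likelihood test at an adjusted p of 0.05, as did 0% of the 13947 genes. At an unadjusted p under 0.05 the count was also 0 of 9, against 28.2% of all genes, and DESeq2 called 0 members and 12.8% of all genes (for 6 of the 9 it gave no adjusted p). In no member did all 3 Tlr7-/- libraries lie above or below all 3 WT libraries, which was the case for 15.9% (above) and 16.8% (below) of genes tested. The log2 fold changes of 6 members were above 0 and those of 3 below, with a median of 0.51 over the 9, against 0.0014 over all genes tested. That median was -0.18 without Tlr7-/- replicate 2, -0.055 without WT replicate 1, 3.16 without WT replicate 3 and -2.13 with naming style as a covariate.

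C1qa had the largest log2 fold change of the tested members, 2.44 ± 1.15 (SE; edgeR adjusted p = 0.207). C1qc had 1.21 ± 1.22 (edgeR adjusted p = 0.524), and Trem2 had 1.02 ± 1.34 (edgeR adjusted p = 0.628). On the lower side were Ctss at -0.64 ± 1.17 (edgeR adjusted p = 0.732), Csf1r at -0.31 ± 0.5 (edgeR adjusted p = 0.697) and Lyz2 at -0.23 ± 1.24 (edgeR adjusted p = 0.911). Laptm5, Tyrobp and C1qb had 0.94, 0.51 and 0.42, with standard errors of 0.887 to 1.3.

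The direction of the values differed with the libraries compared. In a fit with 3 groups, replicate 1 against WT, the comparison within 1 naming style, gave log2 fold changes below 0 for all 9 tested members, from -4.31 (C1qc) to -0.34 (Csf1r), and called 0 of them, against 1.43% of genes tested (0.889% higher and 0.545% lower). That arm is 1 library, so its spread is taken from the other groups. Without WT replicate 3 the same contrast gave values above 0 for 8 of the 9, from 0.37 (C1qb) to 1.75 (Tyrobp), and -2.36 for C1qc, so the lower direction rested on that WT library. Replicates 2 and 3 against WT gave values above 0 for 7 members and below 0 for Csf1r (-0.30) and Ctss (-0.23). Of these, 1 passed, C1qa at 2.99 ± 0.8 (edgeR adjusted p = 0.0219), against 49.6% of all genes tested in either direction, 24.4% higher and 25.2% lower. Both contrasts share the WT libraries.

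Leaving out WT replicate 3 raised the values and turned the sign of 3 of the 9 members in the fit with all Tlr7-/- libraries, of 8 in replicate 1 against WT and of 2 in replicates 2 and 3 against WT. Without it the log2 fold changes of all 3 Tlr7-/- libraries over the 2 WT libraries left were 4.64 for C1qa, 5.29 for Trem2, 3.52 for C1qb, 2.76 for Lyz2 and 2.34 for Ctss, and 0 members passed (edgeR adjusted p = 0.239 to 0.358 over the 10). In replicates 2 and 3 against WT, C1qa was not called without Tlr7-/- replicate 2, Tlr7-/- replicate 3 or WT replicate 2 (edgeR adjusted p = 0.0964, 0.0589 and 0.0519), nor without a filter on low counts (0.0588).

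**Figure D3:**
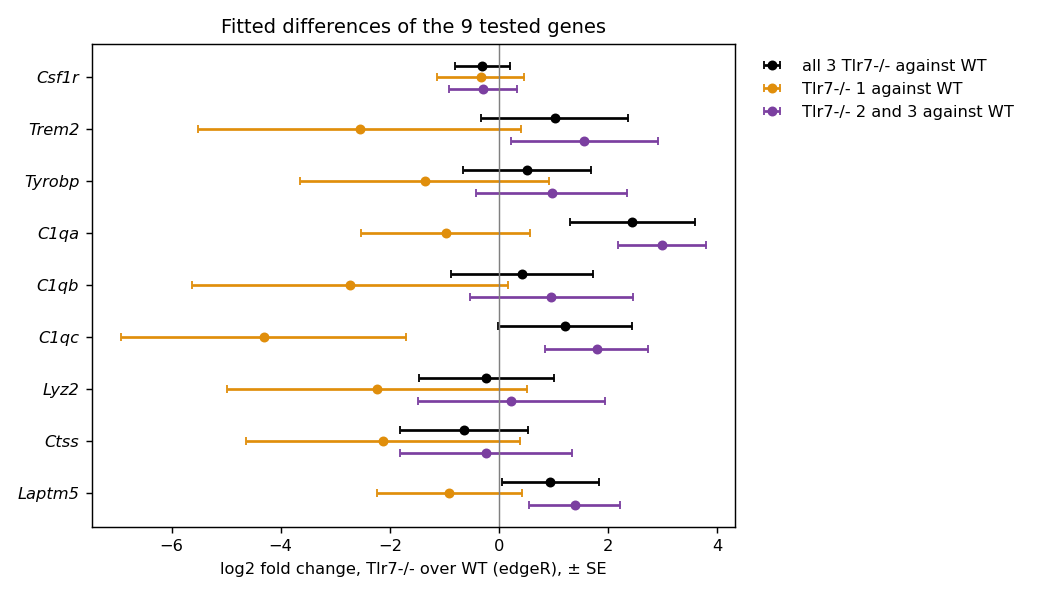
Log2 fold change, Tlr7-/- over WT, with its standard error from edgeR for the 9 tested genes. Black points use all 3 Tlr7-/- libraries, orange points replicate 1 and purple points replicates 2 and 3. All orange points lie below 0, and C1qa in purple (2.99 ± 0.8) is the value past the threshold.

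Genes that act with these members were followed as lists chosen by role. Of 12 ligands and partners, 11 were tested and their median log2 fold change was 0.13, with 0 called. Cx3cl1, the neuronal ligand of Cx3cr1, had 15504 to 19520 counts in Tlr7-/- and 16208 to 18324 in WT libraries. Il34 and Csf1, the ligands of Csf1r, had 486 to 994 and 403 to 534 counts in Tlr7-/- libraries, against 698 to 735 and 357 to 449 counts in WT libraries. Cd200 and Cd47, surface proteins that restrain phagocytes, had 3198 to 3982 and 1883 to 3110 counts in Tlr7-/- libraries, against 3755 to 4070 and 2060 to 2370 counts in WT libraries. In replicates 2 and 3 against WT 5 of the 11 were higher and 0 lower, where 24.4% of all genes tested were higher and 25.2% lower.

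Of 16 other complement genes 11 were tested and 0 called with all libraries, with a median of 0.30. C3ar1, the receptor for the C3a fragment, followed the members with 2, 46 and 42 counts in Tlr7-/- and 11, 1 and 44 in WT libraries. C4b, which astrocytes also make, had 1442 to 2156 counts in Tlr7-/- and 1420 to 1788 in WT libraries. Of 19 lysosomal genes 17 were tested, with a median of 0.01 and 0 called. Cst3, Ctsb, Ctsd and Lamp1, which neural cells express broadly, each had 9001 counts or more in every library, and the list's sum ran from 2700 to 3172 CPM in Tlr7-/- and from 2973 to 3268 CPM in WT libraries.

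Myeloid surface and signalling genes shared the members' pattern in part. Of the 29 found, WT replicate 3 was at least 4-fold above both other WT libraries for 8, and Tlr7-/- replicates 2 and 3 above replicate 1 for 3, with 2 genes meeting both rules. Fcer1g, an adaptor of antibody receptors, had 6, 28 and 28 counts in Tlr7-/- and 7, 4 and 45 in WT libraries. Coro1a, the most abundant of the list, had 1735 to 2720 counts in Tlr7-/- and 2857 to 2946 in WT libraries and is also made by neurons. Cd68, the next most abundant, had 485, 343 and 97 counts in Tlr7-/- and 329, 229 and 235 in WT libraries. Lyn had 202, 113 and 151 counts in Tlr7-/- and 93, 102 and 163 in WT libraries. Inpp5d had 105, 66 and 95 counts in Tlr7-/- and 62, 44 and 80 in WT libraries. Cd68, Lyn and Inpp5d were thus highest in Tlr7-/- replicate 1, where the members were low. Aif1, which encodes the microglial stain Iba1, had 6, 6 and 4 counts in Tlr7-/- and 8, 4 and 13 in WT libraries. Spi1, which encodes PU.1, had 0, 4 and 3 counts in Tlr7-/- and 1, 0 and 7 in WT libraries.

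Genes of disease-associated microglia, a state described in mouse models of neurodegeneration, held both kinds of pattern. Spp1, which encodes osteopontin, had 19, 356 and 191 counts in Tlr7-/- and 23, 10 and 43 in WT libraries. Clec7a, a receptor for fungal glucans, had 0, 29 and 16 counts in Tlr7-/- and 0, 0 and 3 in WT libraries. Both were named after their values were seen, and like Cx3cr1 they were higher in Tlr7-/- replicates 2 and 3 than in WT replicate 3. Apoe and Fth1, which astrocytes and other cells also make, had 28700 to 55968 and 21415 to 35660 counts in Tlr7-/- libraries, against 49687 to 59563 and 35354 to 40047 in WT libraries. Of the list's 11 tested genes 0 passed with all libraries, and in replicates 2 and 3 against WT 2 were higher and 2 lower, where 49.6% of all genes tested were called.

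Among Toll-like receptors, Tlr13 followed the members, with 1, 9 and 18 counts in Tlr7-/- and 1, 1 and 11 in WT libraries. Tlr8 did not, with 61, 87 and 93 counts in Tlr7-/- and 0, 0 and 6 in WT libraries: it was counted in Tlr7-/- replicate 1, where the members were low, and had 6 counts in WT replicate 3, where they were highest. Its log2 fold change with all libraries was 5.25 ± 0.782 (SE; edgeR adjusted p = 0.112). It passed in replicate 1 against WT, at 4.8 ± 0.765 (edgeR adjusted p = 0.0304), and in replicates 2 and 3 against WT, at 5.43 ± 0.648 (edgeR adjusted p = 0.000239).

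The summed levels of lists of the other cell types changed far less between libraries than that of the 10 genes. The summed level of 12 neuron genes was 9054 to 10056 CPM in Tlr7-/- and 9010 to 9285 CPM in WT libraries, and that of 12 astrocyte genes was 4466 to 5692 CPM in Tlr7-/- and 5214 to 5452 CPM in WT libraries. For 12 oligodendrocyte lineage genes the sum was 776 to 1052 CPM in Tlr7-/- and 1463 to 1514 CPM in WT libraries. Endothelial genes summed to 3.05 to 4.43 CPM in Tlr7-/- and 2.44 to 3.94 CPM in WT libraries, with Cdh5 at 0 throughout. Genes of mural cells and fibroblasts summed to 23.1 to 39.9 CPM in Tlr7-/- and 26.6 to 29.1 CPM in WT libraries. Sums are led by abundant genes, and single low genes of these lists moved more. The endothelial gene Slco1a4 had 5, 24 and 22 counts in Tlr7-/- and 0, 0 and 5 in WT libraries. Acta2, of the mural and fibroblast list, had 0, 17 and 4 counts in Tlr7-/- and 3, 1 and 55 in WT libraries. In WT replicate 3 the neuron sum was 9285 CPM, against 9145 and 9010 CPM in WT replicates 1 and 2, and the astrocyte sum was 5315 CPM, against 5452 and 5214 CPM, while the sum of the 10 genes was 10.4 times that of WT replicate 1 (8.83 to 12.3).

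**Figure D4:**
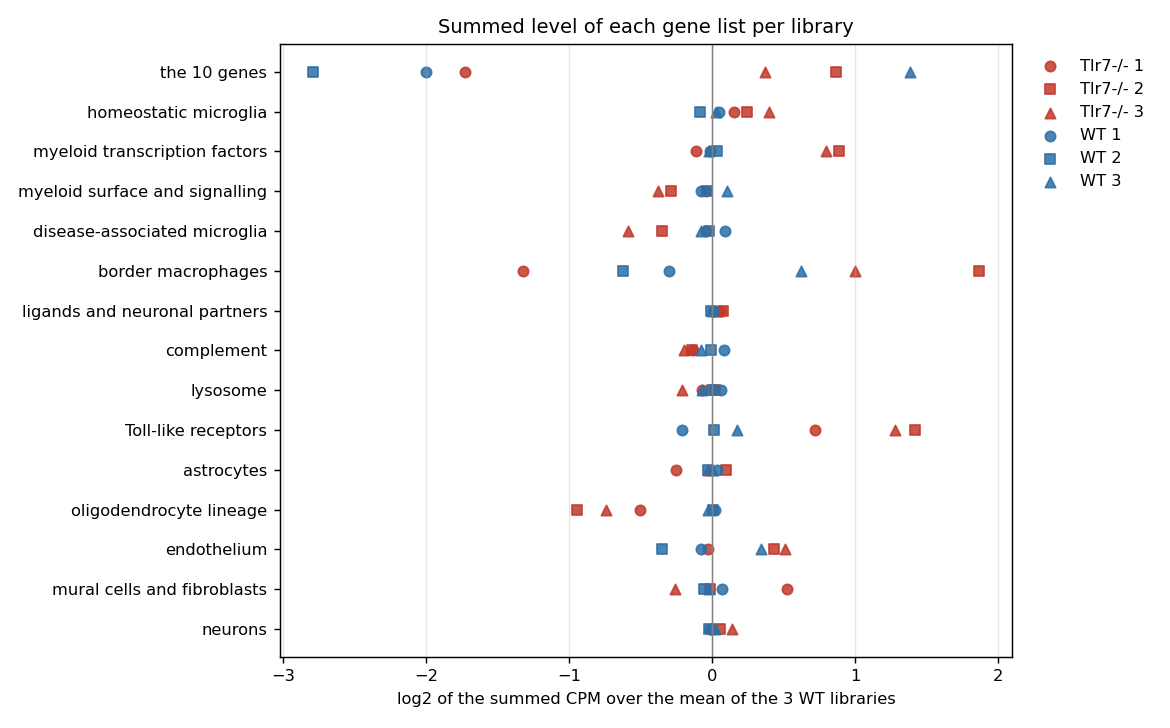
Log2 of the summed CPM of each list over the mean of the 3 WT libraries, one symbol per library, for lists with over 20 counts in every library. The 10 genes spread over the widest range of the lists shown, followed by the border macrophage list, while neuron, astrocyte and lysosomal genes lie close to 0 in all 6 libraries.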

How the data were processed

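Per the labels, libraries came from a TruSeq Stranded kit for messenger RNA and were run on a NextSeq500. The submitters' processing notes name GRCm38.p6, bcl2fastq, HISAT2, featureCounts and edgeR, with no version or role. The authors deposited raw total counts per gene, the main measurement, with RPKM values (an alternative) and TPM values (levels between genes), both scaled by the authors. The authors' log2 fold changes and p-values with false discovery rates are in another deposited table, quoted once.

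Counts were filtered with filterByExpr, scaled by TMM and compared with edgeR 4.0.16 (robust glmQLFit, two-sided glmQLFTest, R 4.3.3), adjusted by Benjamini and Hochberg's method across the 13947 genes that passed the filter, at a threshold of 0.05. Tlr7-/- and WT were compared with all libraries and in a fit with 3 groups that sets replicate 1 apart, whose alternatives were chosen after seeing the data. DESeq2 1.42.0, limma 3.58.1 and the alternatives below were also run, and the procedure was tested on simulated data. Count intervals are exact Poisson, share intervals exact binomial, ratio intervals exact conditional binomial, at 95%. A count of 0 allows 3 counts. CPM uses library totals. Replicates of each genotype differed by more than counting noise.

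The members and lists were chosen with earlier results of these data known. Named genes are the members, the up to 4 most abundant genes of each list, the 10 nearest profiles, and Tlr7 and Tlr8. Of these, 1 listed gene is not reported here. Any other listed gene named was chosen after its values were seen. Itgam has 2 overlapping entries, of which 1 is quoted.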

Additional observations from a re-analysis of the deposited data

How the results depend on the processing

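The count of all genes called moved most: it was 0, but 1785 with DESeq2, 200 with naming style as a covariate, 320 with libraries of the WT naming style, 1 without a filter, 1 with a GC content and length correction, and 0 to 6922 when a library was left out (6922 without Tlr7-/- replicate 1). Members called were 0, with 0 to 2 when a library was left out (Cx3cr1 and C1qa without Tlr7-/- replicate 1, the library where Cx3cr1 had no count). Of the listed genes outside the members 0 were called, but 26 with DESeq2, 9 with naming style as a covariate, 15 with libraries of the WT naming style and 0 to 59 when a library was left out. In replicate 1 against WT, 200 genes became 353 without a filter and 18 to 355 when a library was left out, and 9 listed genes became 1 to 16. In replicates 2 and 3 against WT, 6915 genes became 4544 after the GC content and length correction, and 1 member became 0 to 9 when a library was left out (9 without WT replicate 3, which sets libraries with high members against libraries with low ones, so the count is no support). The call there was C1qa, and without a filter it was Cx3cr1 in its place. The 18.0-fold range of the summed members was 24.8 with the deposited RPKM, 11.1 without Lyz2 and 28.1 without Csf1r, and stayed inside its counting interval with TMM scaling, relative to the neuron list and without each other member. With one library left out, an alternative chosen after seeing the data, it was 10.4 (without WT replicate 2) to 18.0, and 12.6 without WT replicate 3.

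Signs changed as follows, and the cause was not tested. With naming style as a covariate the log2 fold changes were -0.98 for C1qa, -2.73 for C1qb, -4.31 for C1qc, -0.91 for Laptm5, -1.36 for Tyrobp and -2.55 for Trem2. With libraries of the WT naming style they were -0.98, -2.73, -4.31, -0.91, -1.37 and -2.55 in the same order. Lyz2 had 0.92 and Ctss 0.73 with limma-voom, and on RPKM with pseudocounts of 0.1, 0.5 and 1 Lyz2 had 0.86, 0.69 and 0.55, and Ctss 0.45 and 0.076 with the first and second. With one library left out the ranges were -0.38 to 3.52 (C1qb), -0.78 to 2.76 (Lyz2), -0.66 to 0.50 (Csf1r), -1.19 to 2.34 (Ctss) and -0.18 to 3.62 (Tyrobp). In replicate 1 against WT they were -1.47 to 1.22 (C1qa), -3.29 to 0.37 (C1qb), -2.77 to 0.76 (Lyz2), -0.68 to 0.47 (Csf1r), -1.36 to 0.67 (Laptm5), -2.67 to 0.84 (Ctss), -1.94 to 1.75 (Tyrobp) and -3.12 to 1.72 (Trem2). In replicates 2 and 3 against WT they were -0.31 to 3.22 (Lyz2), -0.65 to 0.51 (Csf1r) and -0.78 to 2.74 (Ctss).

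Whether the replicate numbers pair the samples is not given in the labels and was not settled by the values. Deviations of same-numbered libraries correlated at 0.241, -0.0839 and 0.264, and those of differently numbered libraries at -0.278 to 0.124. With a replicate block 0 genes and 0 members were called, and Lyz2 turned to 0.67 and Ctss to 0.19. Every member but Csf1r and Lyz2 had a count under 10 in at least 1 library, which limits its precision.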
